A study of Homo sapiens with 4 samples.

Results

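Genes that drive or restrain the G1-S transition were examined for N6-methyladenosine (m6A) in OE-19 cells, an established line of adenocarcinoma of the esophagogastric junction (AEG). The set held 10 genes of 20033 protein-coding genes: the D cyclins CCND1, CCND2 and CCND3, the E cyclins CCNE1 and CCNE2, the kinases CDK2, CDK4 and CDK6, and the inhibitors CDKN1A and CDKN1B. The members were named by function, and a peak belonged to a member when its summit lay in the gene body. This gave 17 of the 43925 peaks in the deposited lists, 11 of 24607 in replicate 1 and 6 of 19318 in replicate 2. The cells carried no genetic change or drug treatment by their labels and were grown in RPMI1640 with serum and antibiotics. RNA was pulled down with an anti-m6A antibody in 2 samples (replicates 1 and 2), and 2 further samples were input RNA without antibody. The input samples are not analysed here, because the peak lists belong to the pulled-down samples. The study calls its replicates biological, and the labels do not say whether they were separate cultures. All values come from 1 cell line and from 1 library per replicate, so each replicate is given side by side and no test was made between them.

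D cyclins bind CDK4 and CDK6 early in G1, and E cyclins bind CDK2 later. The active kinases phosphorylate the retinoblastoma protein, which releases E2F factors to switch on the genes of S phase. CDKN1A (p21) and CDKN1B (p27) bind these complexes and restrain them. m6A is laid down on adenines in a short consensus with the core GGAC, and it is known to be frequent near stop codons and in long exons.

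The sequences under the peaks found in both replicates are shown first, together with the coding end of CCND1, where the motif is dense in a peak of 1 replicate. All are given 5′ to 3′ on the strand of the gene in hg38, and capitals mark GGAC in the longer stretches and, in each short window, only the GGAC or other DRACH match at its centre. DRACH is the wider consensus: any base but C, then A or G, then A, then C, then any base but G. A GGAC followed by A, C or T is therefore also a DRACH match. The CDKN1B stretch (chr12:12718146-12718281, plus strand) runs in the coding part of exon 1 from just before the summits to past the last GGAC of the shared peak. The CCND1 coding end (chr11:69651190-69651279, plus strand) stops right before the stop codon. The other windows hold 14 bases on each side of the adenine of the motif: CCND1 before the start codon (chr11:69641260-69641288), CCND1 at the start codon (chr11:69641305-69641333), CDK6 at the start codon (chr7:92833299-92833327, minus strand), CDK6 ahead of the stop codon (chr7:92615202-92615230, minus strand) and CDK6 nearer the stop codon (chr7:92615151-92615179, minus strand).
CDKN1B, coding exon 1: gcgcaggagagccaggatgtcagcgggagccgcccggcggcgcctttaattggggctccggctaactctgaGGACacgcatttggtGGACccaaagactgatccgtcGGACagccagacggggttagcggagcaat
CCND1, coding end: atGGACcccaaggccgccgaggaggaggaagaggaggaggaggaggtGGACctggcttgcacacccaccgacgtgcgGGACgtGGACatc
CCND1, before the start codon: cggacccagccaGGACccacagccctccc
CCND1, start codon: gccccagccatgGAACAccagctcctgtg
CDK6, start codon: cggcatggagaaGGACggcctgtgccgcg
CDK6, ahead of the stop codon: cccatacttccaGGACctggaaaggtgca
CDK6, nearer the stop codon: gccgcccagccaGAACAcctcggagctga

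Each peak is described by its fold enrichment, its q and its position. Fold enrichment is the height of the pile of reads at the summit relative to the background of the peak caller, q is the false discovery rate given by the caller, and the position is that of the summit. At a given fold enrichment, q falls as more reads pile up, so the pair tells more than either alone. The lists hold no read numbers, and the depth of each library is unknown. Over all exonic peaks the median fold enrichment was 5.30 in replicate 1 (n = 20134) and 4.82 in replicate 2 (n = 13113). The median −log10 q was 11.6 and 12.9.

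Exonic peaks were present in both replicates in CCND1, CDK6 and CDKN1B, 1 gene of each of the classes of D cyclins, kinases and inhibitors. Over all protein-coding genes, 33.4% had an exonic summit in both replicates, and 38.4% of those with an exonic length within the range of the members (2461 to 12239 nt) had one. The 3 of 10 members lay near these shares. Replicate 1 had exonic summits in 7 members, against 42.4% of protein-coding genes, and replicate 2 in 3 members, against 34.1%. CCND3, CCNE1, CDK2 and CDKN1A had theirs in replicate 1 alone, and 0 members had one in replicate 2 alone. Of the 20033 protein-coding genes, 1808 had theirs in replicate 1 alone and 152 in replicate 2 alone. CCND2 and CCNE2 had no summit anywhere in the gene body, and CDK4 had summits only outside its own exons. By gene body, 8 members had a summit in replicate 1 (47.1% of protein-coding genes), 5 in replicate 2 (40.8%) and 5 in both (37.7%). These 5 include CCND3, which had a different peak in each replicate, and CDK4, whose summits lay outside its exons.

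**Figure D1:**
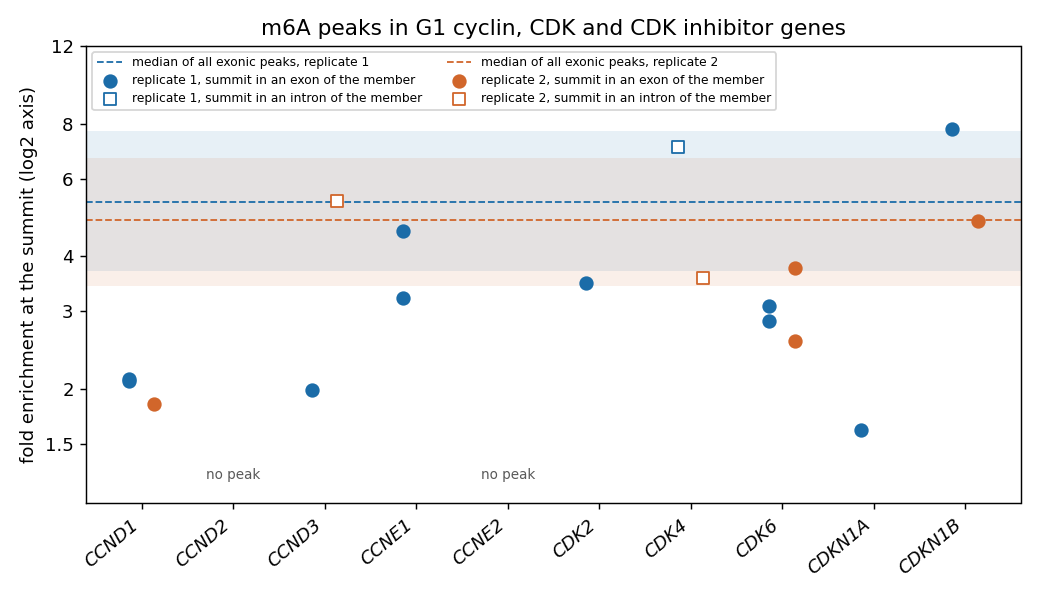
Fold enrichment at the summit (log2 axis) of each peak in the 10 member genes, in replicate 1 (blue) and replicate 2 (orange); filled circles lie in an exon of the member and open squares in an intron. Dashed lines and bands give the median and the quartiles of all exonic peaks of each list, and apart from CDKN1B in replicate 1 (7.76) the exonic member peaks lie below the median of their list.

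CCND1, the D cyclin often amplified in tumors, carried a peak over its start codon in both replicates. In replicate 1 it ran from 69641188 to 69641567 on chromosome 11, with the summit in coding sequence 8 nt after the first coding base. In replicate 2 it ran from 69641214 to 69641383, with the summit 11 nt before that base, in the 5′ UTR. Both summits lay in exon 1 of 5, and they were 19 bp apart. The fold enrichment was 2.10 in replicate 1 and 1.85 in replicate 2, at percentiles 2.84 and 1.51 of the exonic peaks of the lists. Their −log10 q of 13.0 and 10.4 was at percentiles 53.8 and 42.0. The values were thus low in fold but in the middle of the lists by q. The 170 bp covered by both peaks held 2 GGAC motifs, both in the 5′ UTR at 51 and 40 nt before the first coding base, and 4 DRACH matches. The printed GAACA directly follows the ATG and its middle adenine lies 3 nt before the replicate 1 summit.

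A second CCND1 peak, at the end of the coding sequence, was called in replicate 1 alone. It ran from 69651094 to 69651479 with its summit in exon 5, 36 nt before the stop codon, and had a fold enrichment of 2.08 and a −log10 q of 13.0. It held 5 GGAC motifs, 3 of them TGGAC, and 4 of these GGAC stand in the 90 coding bases printed above. The printed GGAC that is followed by G is not a DRACH match. The peak thus matched the start codon peak of the same list in strength (2.08 and 2.10), and replicate 2 had no counterpart.

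CCND3, the D cyclin most prominent in lymphoid cells, had 1 exonic peak, in replicate 1 alone. It ran from 41941561 to 41941717 on chromosome 6 (minus strand), with its summit in exon 1 of 5, 32 nt after the first coding base. Its fold enrichment of 1.99 was at percentile 1.92 and its −log10 q of 5.7 at percentile 24.4. It held 3 GGAC motifs. Replicate 2 had a different CCND3 peak, from 41950647 to 41950878, in an intron of 14 of the 23 annotated transcripts and 8913 bp upstream of the start of the canonical transcript. This intronic peak had a fold enrichment of 5.34, a −log10 q of 5.0 and 0 GGAC motifs on the gene's strand against 3 on the opposite strand. CCND2, the remaining D cyclin (chromosome 12, 4269771 to 4305353), had no peak, although its 7988 exonic nt place it at percentile 79.8 of protein-coding genes by length.

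The E cyclins had peaks in CCNE1 alone, and in replicate 1 alone. The CCNE1 peak from 29812010 to 29812194 on chromosome 19 had its summit in exon 1, in the 5′ UTR 72 nt before the first coding base. Its fold enrichment was 3.21, its −log10 q was 3.3, and the window of 50 nt around its summit was 83.2% G and C. The other peak (29824040 to 29824199) had its summit 380 nt past the start of the stop codon in the 3′ UTR, and its fold enrichment was 4.56 with a −log10 q of 8.3. That window held no GGAC and no DRACH match. The peak held 1 GGAC, 98 nt upstream of its summit.

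**Figure D2:**
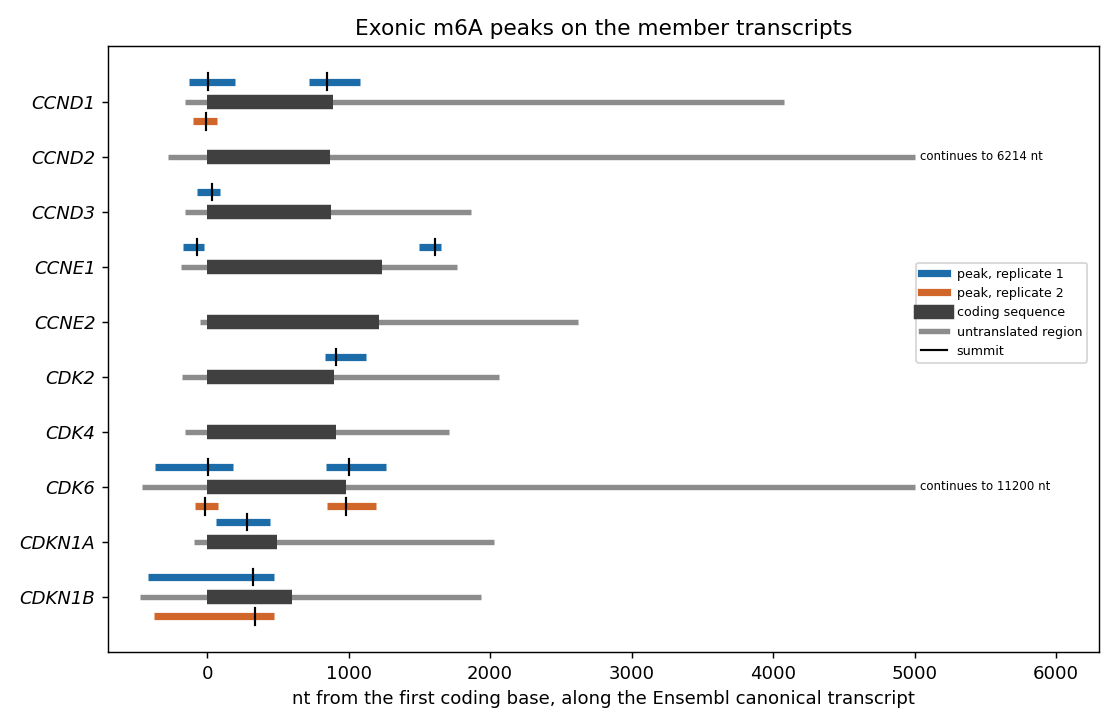
Exonic peaks of replicate 1 (blue, above) and replicate 2 (orange, below) on the Ensembl canonical transcript of each member, in nt from the first coding base, with summits as black ticks; thick dark bars are coding sequence and grey bars untranslated regions. Summits lie near the start codon in CCND1, CCND3 and CDK6 and near the stop codon in CCND1, CDK2 and CDK6. Of these, the CCND3 start codon peak and the CCND1 and CDK2 stop codon peaks are in replicate 1 alone. CCND2, CCNE2 and CDK4 carry no exonic summit.

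Among the kinases, CDK6 had a peak at each end of its coding sequence in both replicates, the only member with 2 shared exonic peaks. The start codon peak ran from 92833142 to 92833875 on chromosome 7 (minus strand) in replicate 1 and from 92833246 to 92833409 in replicate 2. Its summits lay in exon 2 of 8, 10 nt after the first coding base in replicate 1 and 12 nt before it in replicate 2. The fold enrichment was 2.85 in replicate 1 and 3.75 in replicate 2, with −log10 q of 13.5 and 23.7. The replicate 1 summit fell on the adenine of the printed GGAC, the only GGAC in the 164 bp covered by both peaks. That GGAC is followed by G and is not a DRACH match. The only DRACH match in these 164 bp lay 18 nt after the replicate 1 summit. Across 11734 pairs of exonic peaks, 80.0% had the higher fold enrichment in replicate 1, and the median log2 ratio of replicate 1 over replicate 2 was 0.43 (quartiles 0.09 and 0.77). The CDK6 start codon pair went the other way, with a log2 ratio of -0.39, at percentile 6.89.

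The stop codon peak of CDK6 ran from 92614859 to 92615279 in replicate 1 and from 92614929 to 92615271 in replicate 2. Both summits lay in exon 8, which is 10366 nt long, 23 nt past the start of the stop codon in replicate 1 and 2 nt past it, on the last base of that codon, in replicate 2. The fold enrichment was 3.08 and 2.57, with −log10 q of 16.9 and 13.8. The 343 bp in common held 2 GGAC motifs, 74 nt before and 130 nt after the start of the stop codon, and 6 DRACH matches. Neither summit had GGAC within 50 nt. The rest of the CDK6 3′ UTR, which is 10219 nt long in all, carried no other summit in either list. CDK6 has the longest exonic sequence of the members, at percentile 92.7 of protein-coding genes.

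CDK2, the partner of the E cyclins, had a single peak, in replicate 1. It ran from 55971562 to 55971854 on chromosome 12 with its summit 20 nt past the start of the stop codon, in the 3′ UTR. The fold enrichment was 3.48 and the −log10 q was 11.8. The peak held 1 GGAC, as TGGAC, 64 nt downstream of the summit, and 6 DRACH matches. The body of PMEL also spans the summit, but no exon of it does.

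CDK4, the D cyclin kinase, had no exonic peak in either replicate. The peaks in its gene body lay from 57755176 to 57755807 in replicate 1 and from 57755186 to 57755418 in replicate 2 (chromosome 12), with fold enrichment of 7.09 and 3.56. They were 3110 and 3058 bp upstream of the start of the canonical CDK4 transcript, and only 1 of the 15 annotated CDK4 transcripts spans them, as an intron. All 632 and 233 bp lay inside exon 1 of MARCHF9, a ubiquitin ligase gene that overlaps CDK4 on the opposite strand, and both summits were in its 5′ UTR. On the CDK4 strand the peaks held 2 and 0 GGAC motifs, against 5 and 1 on the MARCHF9 strand. MARCHF9 carried 2 further peaks per list outside the CDK4 gene body, the stronger of them at 30.4-fold in replicate 1 and 16.5-fold in replicate 2. Peaks were listed without a strand, so the CDK4 gene body peaks cannot be assigned to 1 of these genes by strand. They covered exons of MARCHF9 and no exon of CDK4. The study's abstract names CDK4 among the m6A-modified targets of IGF2BP3, a protein that binds m6A, whereas the lists used here hold no exonic CDK4 summit.

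The inhibitors differed from each other in strength. CDKN1B had the strongest exonic peak of the set in each list. It ran from 12717421 to 12718344 on chromosome 12 in replicate 1 and from 12717467 to 12718311 in replicate 2, a width of 924 and 845 bp. The fold enrichment was 7.76 in replicate 1 and 4.80 in replicate 2, at percentiles 75.4 and 49.7, and the −log10 q was 35.7 and 22.0. Both summits lay in the coding part of exon 1 of 3 of the canonical transcript, 326 and 339 nt after the first coding base and 13 bp apart. The log2 ratio of 0.69 was at percentile 70.0 of all exonic pairs.

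The 845 bp shared by both CDKN1B peaks covered 373 nt of 5′ UTR and 472 nt of coding sequence. They held 8 GGAC motifs, 2 in the 5′ UTR and 6 in coding sequence, 3 of which were TGGAC, and 16 DRACH matches. The coding GGAC adenines lay at 49, 109, 130, 379, 394 and 415 nt after the first coding base. The last 3 form the cluster in capitals in the printed stretch, 53, 68 and 89 nt downstream of the replicate 1 summit and 40, 55 and 76 nt downstream of the replicate 2 summit. The coding GGAC at 49 nt and the 5′ UTR GGAC 286 nt before the first coding base are followed by G and are not DRACH matches.

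CDKN1A, the p53 target, had the weakest exonic peak of the set, in replicate 1 alone. It ran from 36684166 to 36684552 on chromosome 6 with its summit in coding exon 2 of 3, 208 nt before the stop codon. The fold enrichment of 1.61 was at percentile 0.209 and the −log10 q of 1.9 at percentile 3.14, close to the end of the list. The peak held 4 GGAC motifs, 3 of them TGGAC. It was 387 bp wide, against 924 bp for the CDKN1B peak of replicate 1. No GGAC count per peak is given for all exonic peaks, so motif counts are not read against strength.

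**Figure D3:**
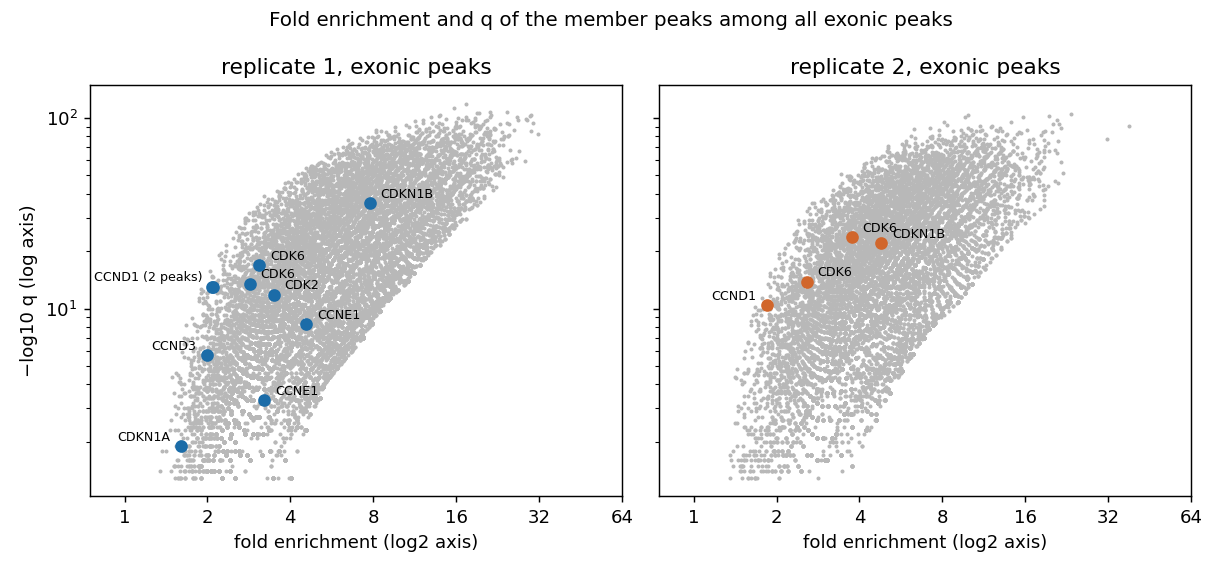
Fold enrichment (log2 axis) against −log10 q (log axis) of all exonic peaks (grey) in each replicate, with the exonic member peaks coloured and named. The CCND1 peaks sit at the left edge of the cloud, at fold percentiles 1.51 to 2.84 with q percentiles of 42.0 to 54.0, the CDK6 start codon peak of replicate 2 lies higher on both axes (31.4 and 71.7), and CDKN1A sits at the lower end.

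Taking the members as a set, the exonic peaks had a median fold enrichment of 2.96 in replicate 1 (1.61 to 7.76, n = 10) and 3.16 in replicate 2 (1.85 to 4.80, n = 4). These medians lie below the lower quartile of all exonic peaks, which was 3.71 and 3.42. The median −log10 q was 12.4 and 17.9, above the medians of the lists. By −log10 q the lowest were CDKN1A, CCND3 and both CCNE1 peaks, at percentiles 3.14 to 37.7, and the other exonic member peaks lay at percentile 42.0 or higher.

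By sharing, 4 of the 10 exonic peaks of replicate 1 overlapped a peak of replicate 2, against 60.6% of the exonic peaks in protein-coding genes. All 4 exonic peaks of replicate 2 overlapped a replicate 1 peak, against 95.9%. Summits of the shared pairs were 13 to 22 bp apart.

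**Figure D4:**
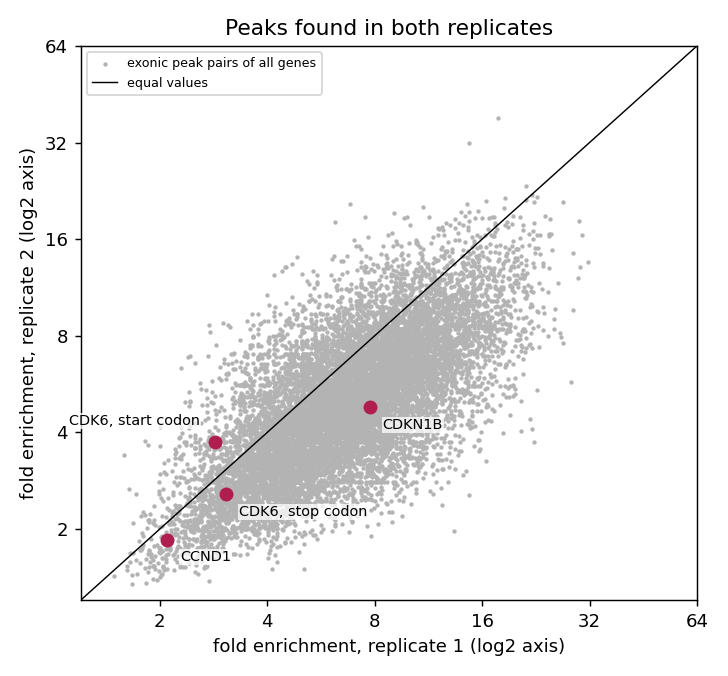
Fold enrichment of exonic peaks found in both replicates (log2 axes), all 11734 pairs in grey and the 4 member pairs in red, with a line of equal values. CCND1, CDKN1B and the CDK6 stop codon pair lie below the line, with the higher value in replicate 1, and the CDK6 start codon pair lies above it.

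Position was compared last. A summit within 200 nt of the stop codon occurred in CCND1, CDK2 and CDK6 in replicate 1 and in CDK6 alone in replicate 2, so 1 of 10 members had it in both, against 13.2% of protein-coding genes. A summit within 50 nt of the first coding base, a window chosen after the positions were seen, occurred at 3 of 10 exonic member summits in replicate 1 (CCND1, CCND3 and CDK6) and at 2 of 4 in replicate 2 (CCND1 and CDK6). Over the exonic summits of all protein-coding genes the share was 3.84% in replicate 1 and 2.05% in replicate 2. The canonical start codons lie 158 nt (CCND1), 159 nt (CCND3) and 463 nt (CDK6) from the start of the transcript.

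GGAC stood within 50 nt of 6 of 10 exonic member summits in replicate 1 and 3 of 4 in replicate 2, against 49.8% and 51.8% of all exonic summits in protein-coding genes. The opposite strand of the same windows held GGAC at 4 and 1 of them. No share over all summits is given for that strand, so no strand preference is read from these counts. DRACH was present at 9 of 10 and 4 of 4, against 85.6% and 89.0%. The counts on the gene's strand lie near the shares of the lists.

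The rest of the pathway was read from a list of 41 further genes of the G1-S transition. Of these, 19 had an exonic summit in both replicates (46.3%, against 33.4% of all protein-coding genes). Another 6 had one in replicate 1 alone, 2 in replicate 2 alone and 14 in neither. By class, the genes with a summit in both were 7 of 10 E2F and DP factors, 3 of 5 genes that set the inhibitory phosphorylation of CDKs, 6 of 12 genes for the turnover of cyclins and inhibitors, 3 of 6 other CDK inhibitors, and 0 of 3 pocket proteins. The classes are small, so these counts are not read as traits of a class. CDK7, CCNH and MNAT1, the subunits of the kinase that activates CDKs, had none in either list. RB1, the target of the G1 kinases, had 1 exonic peak, of 2.40-fold, in replicate 1 and no exonic peak in replicate 2.

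The 6 genes of this list with the highest fold in a shared peak are named first. Picked in this way, they were higher in fold than any shared peak of the member genes. FBXW7, the ubiquitin ligase subunit that recognises cyclin E, was enriched 22.2-fold in replicate 1 and 17.0-fold in replicate 2. CDKN2B (p15), an inhibitor of CDK4 and CDK6, had 21.6 and 7.46. FBXO31, an F-box protein, had 14.8 and 7.06. Among the transcription factors, E2F3 had 15.8 and 6.16 and E2F2 had 11.6 and 7.99, while FZR1, an activator of the anaphase-promoting complex, had 8.42 and 9.51. For CDC25A, the phosphatase that activates CDK2, the values were 12.5 and 3.85, and for E2F1 they were 6.89 and 3.02. In replicate 1, CDKN1B (7.76) was the only member with an exonic peak above the lowest of these values (E2F1). In replicate 2, both CDKN1B (4.80) and the CDK6 start codon peak (3.75) were above the lowest (E2F1), and CDKN1B was also above CDC25A. The genes picked for their fold do not describe the list as a whole. Other shared peaks of it were weaker than that of CDKN1B in both replicates, such as CDKN1C (2.50 and 1.87), E2F8 (2.41 and 2.12) and TFDP1 (2.93 and 2.64).

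Cyclins and CDKs outside the G1 set formed a further list of 40 genes, 4 of which are also in the pathway list. An exonic summit was found in both replicates in 13 of them (32.5%), near the 33.4% of all protein-coding genes. It was found in replicate 1 alone in 8, in replicate 2 alone in 1 and in neither in 18. CCNO, an atypical cyclin of multiciliated cells, had the highest fold enrichment, 22.9 and 15.1. It was followed by genes of kinases that act on transcription. CCNT2 had 16.7 and 12.1 and CCNT1 11.6 and 7.53, both cyclins of the elongation factor P-TEFb. CDK19, a Mediator kinase, had 10.6 and 13.5. CDK13 had 16.02 and 8.46, and CDK12 had 8.81 and 8.56. These genes were named for their fold, and other genes of transcription kinases were lower or had no exonic peak. CDK9 had 4.30 and 3.31, and CDK8 had 2.99 in replicate 1 alone. CCNC, CCNH, CCNK and CDK7 had no exonic peak in either list. CCNF, a cyclin outside transcription, had 6.38 and 5.84. CCNB1, CCNB2 and CDK1, which drive mitosis, had no exonic peak in either list. CCNE2 (chromosome 8, 94879770 to 94896678) shared this with 4397 exonic nt, close to the median of 4418 nt for protein-coding genes. The level of expression of these genes is not in the lists, so a gene without m6A and a gene with little RNA cannot be told apart from the lists alone. The study measured CCNE2 and CDK4 RNA by qPCR in OE-19 cells and reports both as reduced on knockdown of IGF2BP3.

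**Figure D5:**
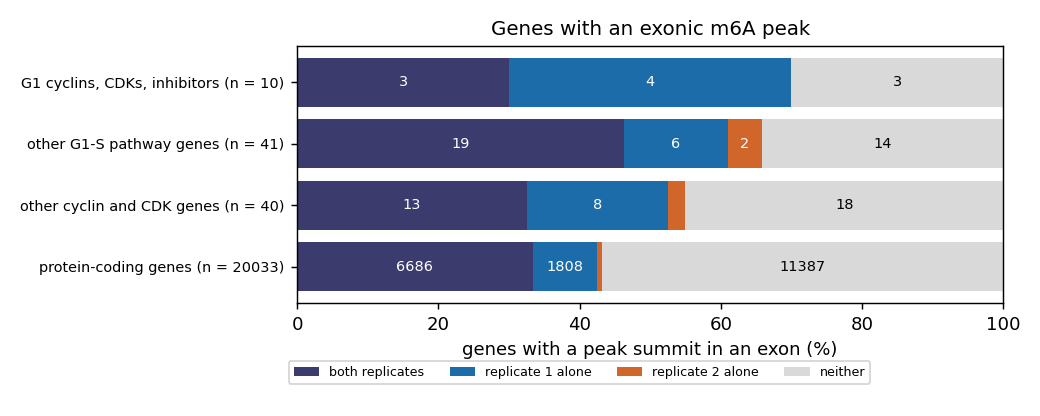
Share of genes (%) with a peak summit in an exon in both replicates, in 1 replicate alone or in neither, for the members, both other lists and all protein-coding genes, with gene numbers printed in the bars. The members (3 of 10 in both) sit near the protein-coding genes (6686 of 20033). In replicate 1 alone there were 4 of 10 members and 1808 of 20033 protein-coding genes, a difference that was not tested.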

How the data were processed

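The m6A meRIP-seq peaks of OE-19 cells came as 1 list per pulled-down sample, and groups followed the sample labels. In the study's methods, DNase-treated total RNA was fragmented before the pull-down, whereas the labels describe cells fixed with UV and lysed. The submitters' processing notes name fastp, HISAT2, MACS2 and hg38, and the study's methods name TopHat2 in place of HISAT2. Versions are not given in the sources used here, nor is the use of the input as control. Each deposited peak has its fold enrichment (a ratio of the pile of reads at the summit over background), its p-value and q-value as −log10, the summit offset and a whole-number score that follows q and was not used. Fold enrichment depends on the background of its own library, so it is not an m6A level.

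Summits were placed on GENCODE version 44 (hg38, 1-based), and 0 peaks ran past a chromosome end. A summit counted for every gene whose exon or body held it. Stop codon windows (200 nt) and background shares used the transcript with the longest coding sequence, and printed positions of the members the Ensembl canonical transcript; both give the same stop codon calls for the members. An overlap of 1 bp or more made peaks shared. GGAC and DRACH were searched within 50 nt of the summit in the genome, on the gene's strand. Placement and motif search were tested on simulated data. All shares are descriptions without a test.

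The members and gene lists were chosen with earlier results of these data known. Named genes were the members, genes whose exon held a member's peak, the 6 genes of each other list whose shared exonic peak was highest in fold (geometric mean of both replicates), CDC25A, E2F1 and RB1. PMEL, CDK7, CCNH, MNAT1, CCNB1, CCNB2 and CDK1 were named after their values were seen. So were CDK8, CDK9, CCNC, CCNF, CCNK, CDKN1C, E2F8 and TFDP1. The alternatives were other q and fold limits, an equal number of peaks, midpoints, other exon, overlap and transcript rules, other windows, and each replicate alone. The scripts ran in Python 3.11.15 (numpy 2.4.6, pysam 0.24.0, matplotlib 3.10.9).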

Additional observations from a re-analysis of the deposited data

How the results depend on the processing

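Of 95 alternative values, 75 stayed within 1.5 times the reported count or within the spread between replicates. Some of the 75 could not move: where a member had 1 exonic peak in a list, choosing the peak by q gave the same peak. The 95 also include GGAC counts on the opposite strand, which are a comparison and not another setting. The limit that changed most was a fold enrichment of 5 or more. It left 2 member peaks in replicate 1 and 1 in replicate 2, and 0 shared peaks in either direction. Members with a gene-body, exonic or stop codon summit in both replicates fell to 0, as did exonic summits with GGAC in each list. An exonic summit in both replicates remained in 9 of 41 other G1-S pathway genes and in 9 of 40 other cyclin and CDK genes. The share over all protein-coding genes at this limit is not given, so these counts are not compared. The counts in 1 list instead of both were 5 to 8 members by gene body, 3 to 7 by exon, 1 to 3 near the stop codon, and 14 to 21 other cyclin and CDK genes, with the higher value each time without replicate 2. An overlap of 50% of both peaks left 2 of the 5 shared gene-body peaks in each direction. The 5 include the CDK4 pair that lies inside MARCHF9. GGAC was found at 10 summits of replicate 1 within 100 nt, at 1 summit of replicate 2 within 25 nt, and at 1 on the opposite strand. A wider window holds more motifs at any summit, and the shares over all summits are not given for these settings. A stop codon window of 400 nt gave 2 members. CCND1, CDK6 and CDKN1B kept an exonic summit in both replicates at q of 1e-05 or less. The depth of the libraries is unknown, and a missing peak may lie under the threshold.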
